A study of Sus scrofa with 16 samples.

Results

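Glycolysis is represented here by the enzymes HK1, GPI, PFKM, ALDOA, TPI1, GAPDH, PGK1, ENO1, LDHA and LDHB, 10 genes named by symbol. They were looked up in the whole pituitary of 16 Złotnicka White gilts, and 9 of the 10 were found by their symbol in the authors' list of genes, among 25880 genes of the count table. GAPDH carries no symbol there and was identified only by its Ensembl identifier in a table of gene names, so its values stand beside those of the other 9 and are not counted with them. The pigs formed 2 groups of 8 unrelated females, with low (LFC) and high feed conversion (HFC), feed conversion being the feed used per unit of weight gained. All were of the same breed, were kept under the same feeding and housing at a test station. The labels give an age of 180 days and a body weight at slaughter of about 100 kg. These label values are the same for every pig and do not show that the groups were matched in age. By the paper's trait measurements of this breed, the HFC pigs spent more days in the test and gained less weight per day. They also had more fat at several sites and less meat in the carcass. The part of these traits in the expression differences was not tested. The question of the comparison was which pituitary genes differ with feed conversion.

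Glycolysis splits glucose into pyruvate in the cytosol and yields ATP without oxygen. Hexokinase traps glucose as a phosphate, and phosphofructokinase commits it to the pathway. Aldolase and triose phosphate isomerase make the triose phosphates, and the later enzymes recover ATP and NADH. Lactate dehydrogenase interconverts pyruvate and lactate, and its tetramers are built from the subunits LDHA and LDHB. The endocrine cells of the pituitary use ATP for making, processing and releasing hormones. In a whole gland, fewer cells of a type and less RNA per cell cannot be told apart.

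Library totals lay between 6010629 and 11794256 counts per pig. Expression is given as CPM, the counts relative to the size of the library after TMM scaling. Each enzyme was well covered, since the lowest count of any of the 9 in any pig was 191, for LDHA, and a count of that size has a counting SD of 7.24%. For the other 8 enzymes the lowest count was 441. The files hold no exonic lengths, so levels are compared between pigs and not between enzymes. In 3 pigs, LFC replicates 4 and 6 and HFC replicate 5, long genes were low and short genes high relative to the mean of all pigs. The slope of each pig's log2 deviation from that mean on the log2 span of the gene in the genome was between -0.083 and -0.064 in these pigs and between -0.020 and 0.064 in the other 13. They are called the low-slope pigs below, and the results that rest on them are given with and without them.

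The expression of the glycolysis enzymes did not pass the test between the HFC and LFC pigs for any of the 9. The study's thresholds were a minimum fold change of 1.3 and a maximum adjusted p of 0.05. By these edgeR called 0 of 9, against 0% of all 13621 genes tested. At an unadjusted p of at most 0.05, edgeR counted 0 of the 9 enzymes, while 11.4% of all genes tested were at that level. DESeq2 and limma voom also called 0 of the 9 at the study's thresholds and had 0 at an unadjusted p of at most 0.05, while DESeq2 called 29 genes of the whole table and limma voom 0. The direction was mixed, with 4 enzymes higher in the HFC pigs and 5 in the LFC pigs. Their median log2 fold change was -0.01, as was the median of all genes tested. Of the 1559 genes at the unadjusted level, 61.4% were higher in the HFC pigs, or 46.0% of 1389 when counts were scaled by their total alone. The 1559 became 3514 without HFC replicate 5, 989 without HFC replicate 4 and 1013 without LFC replicate 4.

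HK1, the hexokinase found in most tissues and bound to the outer side of mitochondria (ENSSSCG00000010253, Sscrofa11.1 chromosome 14, 72382912 to 72460924), had the largest estimated difference. Its expression was between 75.5 and 192 CPM in the LFC pigs, with a median of 140.3, and between 109 and 186 CPM in the HFC pigs, with a median of 159.7. The ranges overlapped, although 7 of the 8 HFC pigs lay above the LFC median. The group means were 132 ± 39.0 and 158 ± 22.3 CPM (SD, n = 8 each), a log2 fold change of 0.26 ± 0.17 (standard error, as for all fold changes that follow) with a 95% interval from -0.09 to 0.60 (edgeR, adjusted p = 0.505). The 3 lowest pigs were the low-slope pigs, with 75.5 and 76.3 CPM in LFC replicates 6 and 4 and 109 CPM in HFC replicate 5. Without these 3 pigs the log2 fold change was 0.13 ± 0.088. Without LFC replicate 2, the highest pig, it was 0.35 at an unadjusted p of 0.0409 (edgeR), where 2213 of 13711 genes were at or under 0.05. Without LFC replicate 4 it was 0.18 at an unadjusted p of 0.252 (edgeR).

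GPI, which converts glucose phosphate to fructose phosphate (ENSSSCG00000002873, chromosome 6, 44032623 to 44069331), had a similar pattern. It ranged from 135 to 236 CPM in the LFC pigs and from 154 to 264 CPM in the HFC pigs, with medians of 205 and 231. The groups overlapped, and 6 of 8 HFC pigs lay above the LFC median. The log2 fold change was 0.20 ± 0.13 with a 95% interval from -0.07 to 0.48 (edgeR, adjusted p = 0.506). Again the same 3 pigs were the lowest, and without them the log2 fold change was 0.14. Without HFC replicate 5 alone it was 0.28 at an unadjusted p of 0.0339 (edgeR, adjusted p = 0.163), where 3514 of 13697 genes were at or under 0.05. Without LFC replicate 6 it was 0.15 at an unadjusted p of 0.240 (edgeR).

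PFKM, the muscle-type subunit of phosphofructokinase (ENSSSCG00000021129, chromosome 5, 78475468 to 78526997), went the other way. Its lowest, median and highest values were 185, 257 and 359 CPM in the LFC pigs and 179, 243 and 328 CPM in the HFC pigs. The groups covered nearly the same range, and the log2 fold change was -0.10 ± 0.14 (edgeR, adjusted p = 0.749). With the gene-span slope of each pig as a covariate it was -0.26 at an unadjusted p of 0.0423 (adjusted p = 0.999 in the same edgeR fit). With each pig left out in turn it ran from -0.15 to -0.012, the latter without LFC replicate 3, which had the highest value.

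ALDOA, the aldolase that cleaves fructose bisphosphate in most tissues (ENSSSCG00000032556, chromosome 3, 18234775 to 18263324), had 225, 326 and 395 CPM as its lowest, median and highest values in the LFC pigs and 254, 360.4 and 431 CPM in the HFC pigs. The 3 low-slope pigs were once more the lowest of the 16, and 6 of the 8 LFC pigs lay inside the range of the HFC pigs. On the log2 scale the HFC minus LFC difference was 0.14 ± 0.13 (edgeR, adjusted p = 0.603). It was -0.01 with the slope as a covariate.

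**Figure D1:**
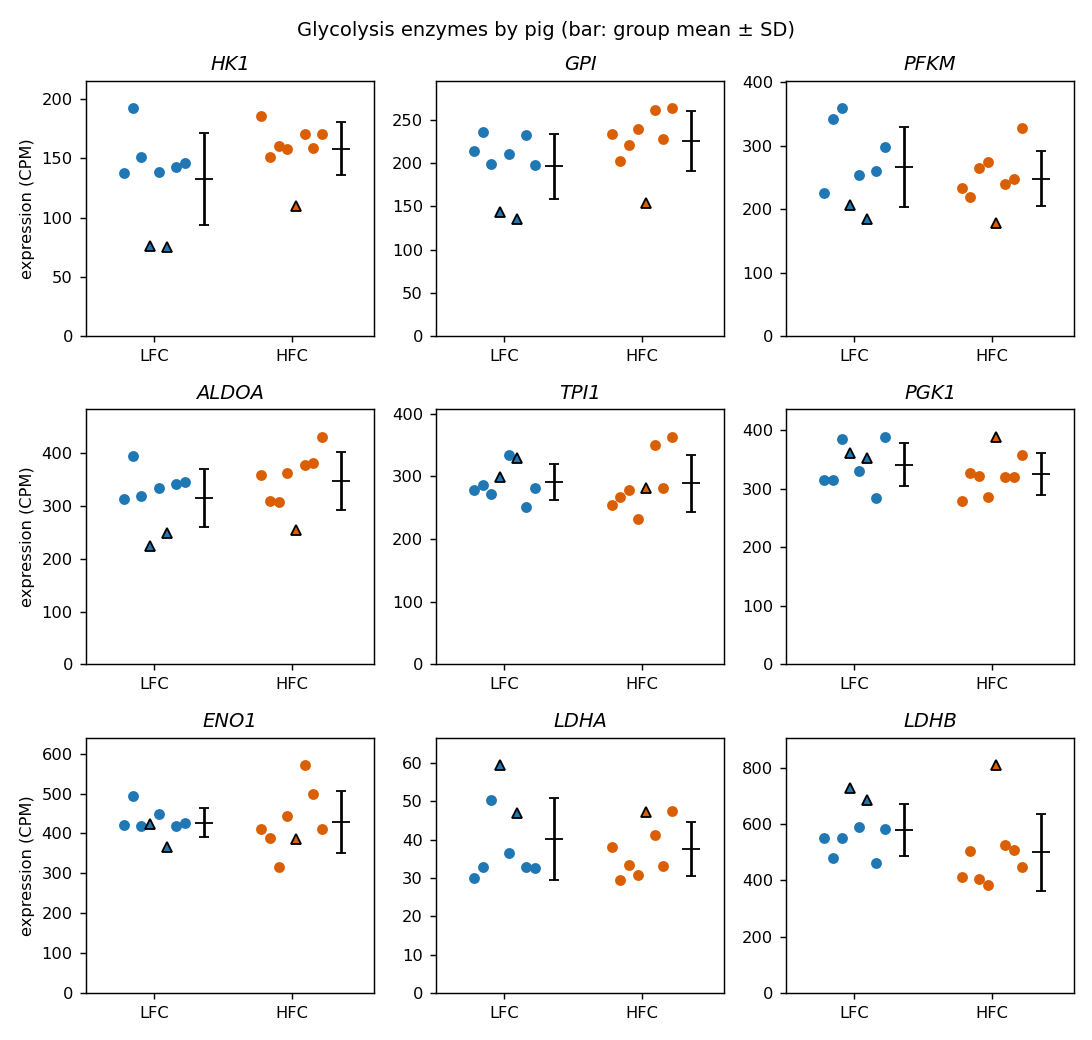
Expression of the 9 glycolysis enzymes in each pig, in CPM after TMM scaling, with LFC pigs in blue, HFC pigs in orange, and bars for the group mean ± SD (n = 8). Triangles mark the 3 low-slope pigs (LFC replicates 4 and 6, HFC replicate 5), which are the lowest 3 for HK1, GPI, PFKM and ALDOA and the highest 3 for LDHB.

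The enzymes of the middle of the pathway were the steadiest. TPI1, triose phosphate isomerase (ENSSSCG00000000685, chromosome 5, 63832435 to 63843134), had 251, 284 and 334 CPM as the lowest, median and highest values in the LFC pigs. In the HFC pigs these values were 232, 279 and 363 CPM, so that every LFC pig lay within the range of the HFC pigs. The estimated log2 fold change was -0.01 ± 0.10 (edgeR, adjusted p = 0.958). PGK1, phosphoglycerate kinase, which makes ATP (ENSSSCG00000012440, chromosome X, 62187404 to 62210705), had 285, 341 and 388 CPM in the LFC pigs and 279.9, 322 and 389 CPM in the HFC pigs. Its coefficient of variation over the 16 pigs, 10.7%, was the lowest of the 9 enzymes, against a median of 21.7% for all genes tested. The log2 fold change of PGK1 was -0.07 ± 0.09 (edgeR, adjusted p = 0.734).

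ENO1, the widely expressed enolase (ENSSSCG00000022343, chromosome 6, 69385486 to 69401708), had 365, 422 and 493 CPM as its lowest, median and highest values in the LFC pigs and 316, 410.4 and 571 CPM in the HFC pigs. The HFC pigs spread more widely and enclosed all 8 LFC pigs. The log2 fold change of 0.00 had a standard error of 0.11 (edgeR, adjusted p = 0.990), and its sign turned under several of the alternative settings. GAPDH, which reduces NAD in the pathway (ENSSSCG00000000694, chromosome 5, 64126481 to 64133991), had 1360.2 ± 128 CPM on average in the LFC group and 1391 ± 141 CPM in the HFC group (SD, n = 8 each). The 3 low-slope pigs were also its lowest. It varied by 9.52% across the pigs, and its log2 fold change was 0.03 ± 0.10 (edgeR, adjusted p = 0.888).

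For TPI1, PGK1, ENO1 and GAPDH the 95% intervals of the log2 fold change lay between -0.26 and 0.23. They exclude the study's minimum fold change of 1.3, which is 0.38 on the log2 scale, in either direction. The intervals of HK1, GPI, PFKM, ALDOA, LDHA and LDHB reach past that value on at least 1 side, so that a difference of this size in these enzymes was neither detected nor excluded.

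LDHA, the subunit that predominates in muscle (ENSSSCG00000013366, chromosome 2, 40813963 to 40826715), had 30.1, 34.6 and 59.4 CPM as its lowest, median and highest values in the LFC pigs and 29.4, 35.7 and 47.5 CPM in the HFC pigs. The log2 fold change was -0.10 ± 0.15 (edgeR, adjusted p = 0.776). It was 0.02 without LFC replicate 4, which had the highest value. LDHB, the subunit that predominates in heart (ENSSSCG00000000576, chromosome 5, 51810967 to 51831490), had 461, 567 and 727 CPM in the LFC pigs and 385, 476 and 809 CPM in the HFC pigs. In 7 of the 8 LFC pigs LDHB was above the median of the HFC pigs, and the highest value of all was that of HFC replicate 5.

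The log2 fold change of LDHB was -0.21 ± 0.15 with a 95% interval from -0.52 to 0.10 (edgeR, adjusted p = 0.520). Without HFC replicate 5 it was -0.32 at an unadjusted p of 0.00981 (edgeR, adjusted p = 0.107), where 3514 of 13697 genes were at or under 0.05. Without LFC replicate 4 it was -0.15 at an unadjusted p of 0.329 (edgeR). Without the 3 low-slope pigs it was -0.23 at an unadjusted p of 0.0324 (edgeR, adjusted p = 0.316), where 1971 of 13732 genes were at or under 0.05. With the gene-span slope as a covariate it was -0.02. A second gene that the table of names calls LDHB, ENSSSCG00000032557, took at most 0.352% of the reads of both in any pig, between 2 and 13 counts. How many reads of near-identical copies were assigned elsewhere is unknown for LDHB and for the other enzymes.

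The balance of the lactate dehydrogenase subunits was compared within each pig, where library scaling has no part. The log2 ratio of LDHB to LDHA counts averaged 3.87 ± 0.26 for LFC and 3.71 ± 0.31 for HFC (SD, n = 8 each). It ran from 3.44 to 4.20 in the LFC pigs and from 3.23 to 4.11 in the HFC pigs, and these ranges overlapped. The difference, HFC minus LFC, was -0.16, within the spread of each group (two-sided exact permutation test over 12870 splits, p = 0.284). The counts are not corrected for the lengths of the transcripts, so the ratio serves only to compare pigs.

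**Figure D2:**
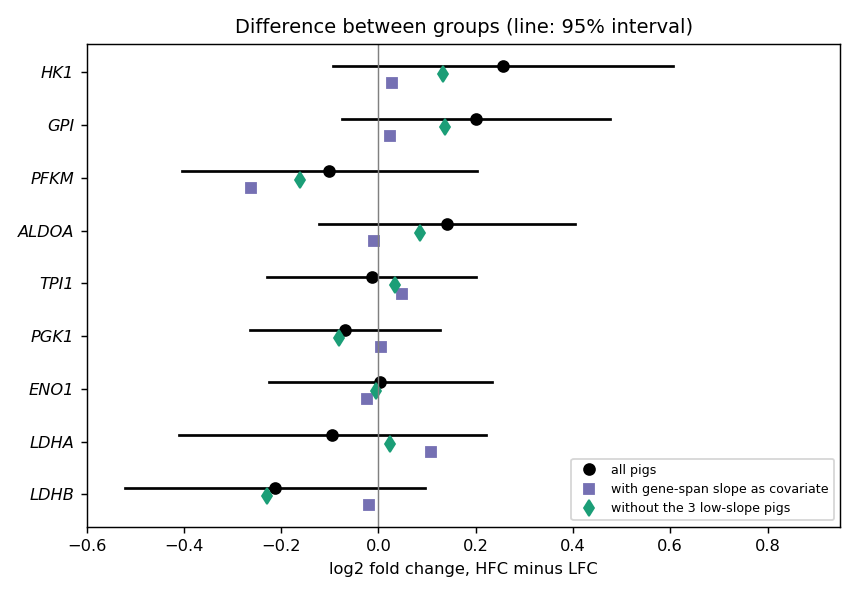
Log2 fold change (HFC minus LFC) of each enzyme, with black points and lines for the estimate from all pigs and its 95% interval, green diamonds for the fit without the 3 low-slope pigs, and violet squares for the fit with the gene-span slope as a covariate. Every black interval includes 0, and the estimates of HK1 and GPI move from 0.26 and 0.20 to 0.03 and 0.02 with the covariate.

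Across the pigs the enzymes did not move as a single block. The 3 low-slope pigs had the lowest HK1, GPI, PFKM and ALDOA of the 16 and the highest LDHB. LDHB was at 727, 686 and 809 CPM in LFC replicates 4 and 6 and HFC replicate 5, against at most 589 CPM in the other 13. PGK1 was highest in HFC replicate 5, with 389 CPM, and LDHA was highest in LFC replicate 4. For TPI1 none of these pigs was among the lowest or highest 3.

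Since the 3 pigs stood apart, the relations between enzymes are given over the other 13. Of 36 pairs of enzymes, 29 had a Pearson's r above 0 in the 13 pigs. None had an adjusted permutation p of at most 0.05 for r or for Spearman's rho. The highest r was that of GPI and ALDOA, 0.77 with a rho of 0.71 (adjusted permutation p = 0.0846 and 0.285). HK1 had an r of 0.60 with GPI and 0.62 with ALDOA, and PGK1 had an r of 0.61 with LDHB (adjusted permutation p = 0.255 for each). LDHB had an r of -0.52 with HK1 and -0.53 with GPI (adjusted permutation p = 0.255 for both), and of -0.22 with ALDOA and 0.0085 with PFKM. With the 3 pigs included, 18 of the 36 pairs had an r above 0, and 10 pairs had an adjusted permutation p of at most 0.05 for r and 8 for rho. All 10 kept their sign without the 3 pigs, while none kept its call in the smaller number of pigs. The r of some fell far, as for GPI and PFKM from 0.63 to 0.03. That of others fell less, as for GPI and ALDOA from 0.93 to 0.77 and for PGK1 and LDHB from 0.71 to 0.61. An r of at least 0.6 was reached by 7 enzyme pairs (19.4%) with the 3 pigs included. Among all pairs of genes tested that share was 7.15%. The median r was 0.02 for the enzyme pairs and 0.0 for all pairs of genes. Whether the shares differ was not tested, and the share of all pairs in the 13 pigs is not given.

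**Figure D3:**
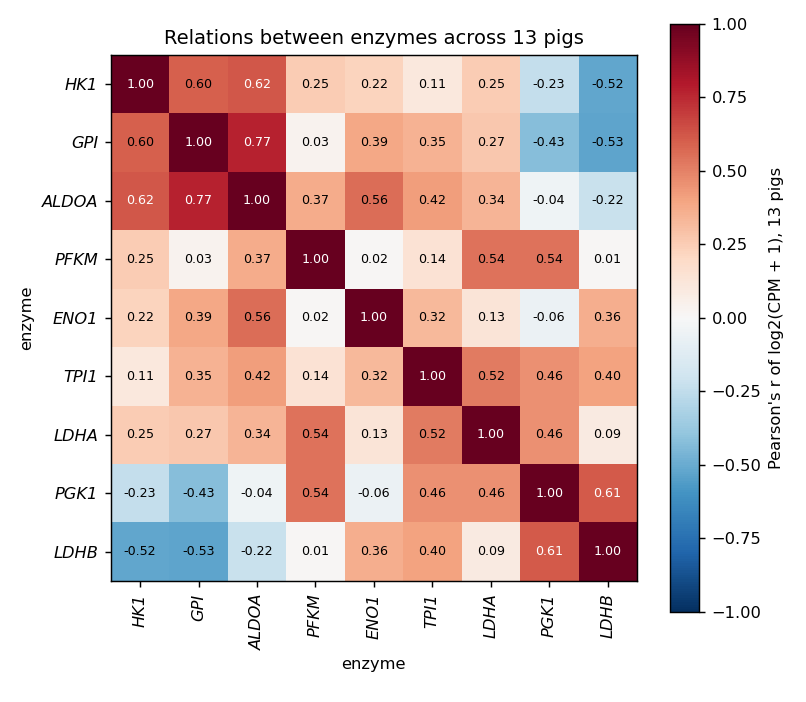
Pearson's r of log2(CPM + 1) between the 9 enzymes across the 13 pigs that are not low-slope pigs, in red above 0 and in blue below 0. GPI and ALDOA have the highest value, 0.77, and LDHB has values of -0.52 and -0.53 with HK1 and GPI.

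The levels of the enzymes were set beside 6 measures of each library, the total counts, the gene-span slope, the ribosomal protein genes, the share of mitochondrial counts, and the markers of posterior-lobe glia and of blood. With all 16 pigs, 22 of the 54 relations had an adjusted permutation p of at most 0.05 for r. The share among other genes is not given here, so this count is not particular to the enzymes. In the 13 pigs, 1 of the 54 had an adjusted permutation p of at most 0.05 for r, that of LDHB with the gene-span slope. Its r was -0.84 and its rho -0.92 (adjusted permutation p = 0.00972 and 0.00108). The slope averaged -0.017 ± 0.044 for LFC and 0.017 ± 0.038 for HFC (SD, n = 8 each), with ranges that overlapped. HK1, the enzyme with the longest span, had an r of 0.66 and a rho of 0.59 with the slope in the 13 pigs (adjusted permutation p = 0.130 and 0.230). PGK1 had an r of -0.60 and a rho of -0.58 with it (adjusted permutation p = 0.174 and 0.230). The mean log2(CPM + 1) of 62 ribosomal protein genes was 9.40 ± 0.39 for LFC and 9.09 ± 0.44 for HFC (SD, n = 8 each). Its r with LDHB was 0.92 in all 16 pigs (adjusted permutation p = 0.00027) and 0.78 in the 13 (adjusted permutation p = 0.0559). In the 13 pigs its r was 0.74 with PGK1 and -0.71 with GPI (adjusted permutation p = 0.0752 and 0.103). The glia and myelin markers summed to between 139 and 6023 CPM in the LFC pigs and between 125 and 3328 CPM in the HFC pigs. With their log2 sum LDHB had a rho of 0.77 and HK1 one of -0.65 in the 13 pigs (adjusted permutation p = 0.085 and 0.18). The r of LDHB and HK1 with it was 0.53 and -0.47 in the 13 pigs (adjusted permutation p = 0.31 and 0.381). In all 16 pigs it was 0.11 and 0.07. The part of these measures in the levels of the enzymes was not tested beyond the fit with the slope as a covariate.

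**Figure D4:**
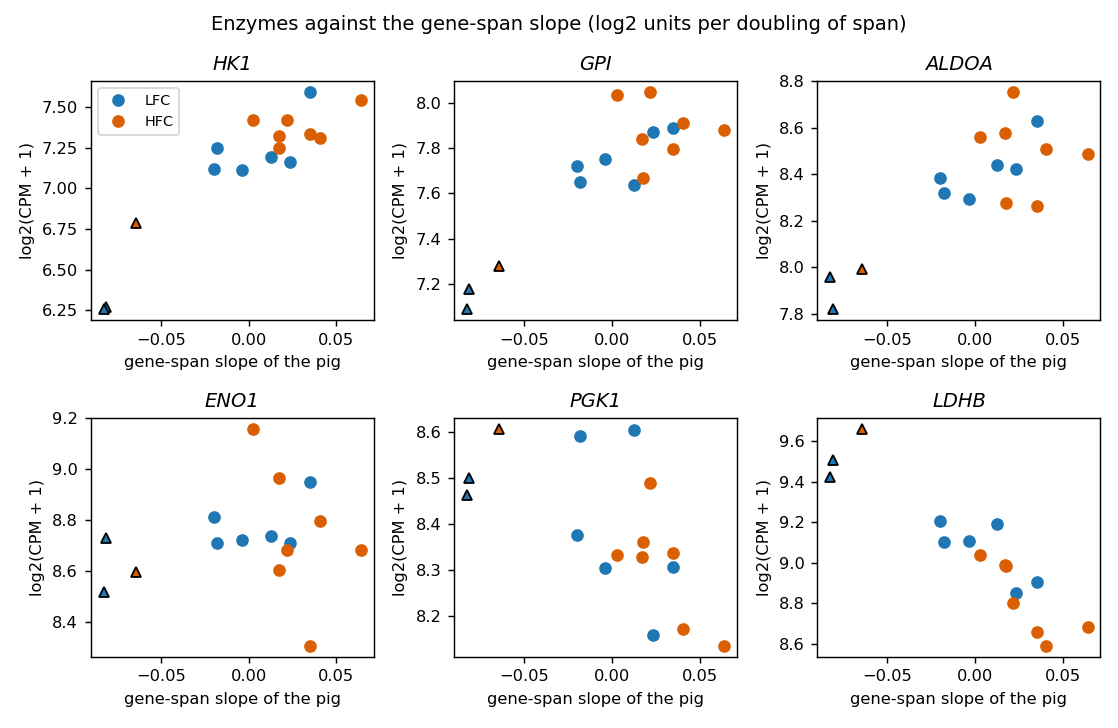
Expression of 6 enzymes, as log2(CPM + 1), against the gene-span slope of each pig, in log2 units per doubling of the span, with LFC pigs in blue, HFC pigs in orange and triangles for the 3 low-slope pigs. Among the other 13 pigs the r is -0.84 for LDHB and -0.60 for PGK1. Of the 6 enzymes shown, only LDHB has an adjusted permutation p of at most 0.05 there. The r of HK1, GPI, ALDOA and ENO1 among the other 13 is 0.66, 0.41, 0.30 and -0.23.

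Red cells depend on glycolysis for ATP. Of the 6 blood markers, 5 were found, and their summed expression was between 279 and 1435 CPM in the LFC pigs and between 63.5 and 1052 CPM in the HFC pigs. The medians of the sum were 451 CPM for LFC and 186 CPM for HFC. All 3 blood markers that were tested were higher in the LFC pigs, with a smallest adjusted p of 0.423 (edgeR). LFC replicate 4 and HFC replicate 5 had the highest sum of their groups, and the r of the log2 sum with LDHB was 0.73 in all 16 pigs (adjusted permutation p = 0.0063) and 0.46 in the 13 (adjusted permutation p = 0.381). The part of blood in the levels of LDHB was not tested. Of the 8 skeletal muscle markers, which bear on PFKM and ALDOA, 5 were found. They summed to at most 10.3 CPM in any pig, and MYL1 was at 0 in all pigs. The labelled tissue was clear from its own genes, since the 9 markers of hormone cells that were found summed to between 93219.5 and 227383 CPM.

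The other enzymes of glycolysis gave the same picture. Of 24 further genes of the pathway, 20 were tested, of which 9 had the higher mean for HFC and 11 for LFC, with a median log2 fold change of -0.03. At an unadjusted p of at most 0.05, 1 was higher in the HFC pigs, where 7.03% of all genes were, and 1 in the LFC pigs, where 4.41% were, and the smallest adjusted p was 0.391 (edgeR). PKLR, the pyruvate kinase of liver and red cells, was near the limit of detection, with means of 0.914 ± 0.437 CPM for LFC and 1.91 ± 0.577 CPM for HFC (SD, n = 8 each). Its log2 fold change was 1.05 ± 0.30. PGAM2, the muscle form of phosphoglycerate mutase, averaged 15.1 ± 2.48 CPM for LFC and 12.2 ± 1.84 CPM for HFC (SD, n = 8 each).

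The sister forms of the enzymes were compared with them only by their differences between groups. PFKL and PFKP, the liver and platelet forms of phosphofructokinase, had log2 fold changes of 0.24 and 0.10 beside the -0.10 of PFKM. Those of HK2, HK3 and HKDC1, further hexokinases, were -0.07, 0.18 and 0.32, with unadjusted p-values of at least 0.335 (edgeR). ALDOC, the aldolase of nervous tissue, averaged 147 ± 79.1 CPM for LFC and 138 ± 93.0 CPM for HFC (SD, n = 8 each), a larger spread relative to its mean than that of ALDOA. ENO2, the enolase of neurons and endocrine cells, had a log2 fold change of 0.11, and that of ENO3, the muscle enolase, was -0.26. GAPDHS and LDHC had too few counts to be tested.

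Genes around the pathway were counted in the same way, with the members of each list at an unadjusted p of at most 0.05 named. That level was reached by 11.4% of all genes tested, 7.03% higher in the HFC pigs and 4.41% in the LFC pigs, and these lists are short. Among 12 tested transporters of glucose and lactate this was SLC2A8, an intracellular hexose transporter, with a log2 fold change of 0.50 and a standard error of 0.19. Among 14 regulators it was MLXIP, a glucose-responsive transcription factor, with a log2 fold change of 0.36. In the pentose phosphate pathway H6PD, the glucose phosphate dehydrogenase of the endoplasmic reticulum, had a log2 fold change of 0.33 and PGLS, the lactonase of the pathway, one of -0.33, among 7 genes tested. Of 15 hypoxia response genes outside glycolysis, INSIG2 and EGLN3 had log2 fold changes of -0.42 and -0.41, and 9 of the 15 were higher in the LFC pigs, as were 7095 of all 13621 genes tested. The smallest adjusted p over these 4 lists was 0.413 (edgeR).

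No gene was at an unadjusted p of at most 0.05 in the 3 remaining lists. Of 13 genes for the entry of pyruvate into mitochondria, 9 were higher in the LFC pigs, and PDK1, a kinase that holds back pyruvate dehydrogenase, had the smallest p with a log2 fold change of -0.24. Of 5 genes of gluconeogenesis 3 were higher in the HFC pigs, with the smallest p for FBP1 at a log2 fold change of -0.16. Of 10 genes of the NADH shuttles 6 were higher in the LFC pigs, with the smallest p for GOT1 at -0.18. Over these lists the smallest adjusted p was 0.442 (edgeR), for PDK1.

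The 5 genes outside the 9 whose expression was most like that of the enzymes, by the mean Pearson's r over all 16 pigs, the low-slope pigs included, were RPA1, MCM4, CD44, GRB2 and GAPDH. Their mean r was between 0.33 and 0.35. Some of the enzymes ran opposite to each other, as HK1 and LDHB with an r of -0.78. No gene can have a high r with all 9, so the size of this mean does not measure likeness. GAPDH had an r between -0.46, with LDHB, and 0.81, with ALDOA.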

How the data were processed

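Reads of non-strand-specific libraries of whole pituitary were filtered with Flexbar and aligned by the authors to Sscrofa11.1 with the Ensembl annotation. The study's methods and the submitters' processing notes name RSEM, STAR, Bowtie 2 and DESeq2 without making clear which aligner gave the counts. The authors deposited counts per gene and pig without normalization, as whole numbers. Their table of the group comparison holds means, ratios and p-values, of which none were used. It served for symbols and coordinates (9550 symbols), and 5875 more genes were named by Ensembl identifier. Groups were read from a label whose tag names shear force and whose values name low and high feed conversion ratio. No pair of libraries in a group was a near copy, with a chi-square per degree of freedom of at least 11.4.

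The 13621 genes that passed the expression filter of edgeR 4.0.16 (R 4.3.3) were scaled by TMM and tested by quasi-likelihood, with p-values adjusted by Benjamini-Hochberg over all of them. Standard errors were taken from the F statistic. The gene-span slope was fitted over 10881 genes with a known span, without the enzymes. Correlations used log2(CPM + 1), a pseudocount of 1 and 100000 permutations, adjusted over 36 or 54 relations. The intervals are 95% intervals. Scripts were tested on simulated data. The genes named are all enzymes, their sister forms (some are not reported here), the genes of each list at an unadjusted p of at most 0.05 or with its smallest p, and the 5 most alike genes. The genes and lists were chosen with earlier results of these data known.

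The alternatives were DESeq2 1.42.0, limma 3.58.1 (voom), RLE, upper-quartile and total scaling, the filter left out or set to a minimum of 10 counts per pig, the replicate number as a block, the gene-span slope as a covariate, and each pig left out in turn. Leaving out the 3 low-slope pigs was added after seeing the data. Counting error alone is covered by the counting SD. Python 3.11.15, numpy 2.4.6, scipy 1.17.1, pandas 2.3.3 and matplotlib 3.10.9 were used for the rest.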

Additional observations from a re-analysis of the deposited data

Results flagged for a closer look

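Among 22 groups of 8 values examined, where chance flags about 1 in 20, 2 held a pig far from the others of its group. HK1 in HFC replicate 5 was 109 CPM, the lowest of its group, and LDHB in the same pig was 809 CPM, the highest of its group. This pig had the fewest counts, 6010629, a gene-span slope of -0.064 and a mean log2(CPM + 1) of ribosomal protein genes of 10.06, the highest of the HFC pigs. The part of these measures in its values was not tested.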

How the results depend on the processing

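No alternative brought any of the 9 enzymes past the study's thresholds. DESeq2 called 29 of all genes tested. At an unadjusted p of at most 0.05 the count of all genes was 650 with the gene-span slope as a covariate, and between 989 (without HFC replicate 4) and 3514 (without HFC replicate 5) with each pig left out, with 1013 without LFC replicate 4. At that level 1 enzyme, PFKM, was counted with the covariate and 1, LDHB, without the 3 low-slope pigs, where 1971 of 13732 genes were. With each pig left out there were between 0 and 2, namely HK1 without LFC replicate 2 (2213 of 13711 genes), and GPI and LDHB without HFC replicate 5. The log2 fold change turned its sign with the covariate for ALDOA (-0.0097), TPI1 (0.049), PGK1 (0.0046), ENO1 (-0.023), LDHA (0.11) and GAPDH (-0.025). It turned without the 3 low-slope pigs for TPI1 (0.035), ENO1 (-0.0053) and LDHA (0.023). TPI1 was also at 0.0038 with at least 10 counts in every pig, and ENO1 at -0.014 with limma voom, at -0.0076 with upper-quartile scaling and at -0.013 with the replicate block. With each pig left out, TPI1 ran from -0.059 to 0.029, ENO1 from -0.066 to 0.057 and LDHA from -0.15 to 0.017. HK1 ran from 0.18 to 0.35, GPI from 0.15 to 0.28 and LDHB from -0.32 to -0.15. The LDHB to LDHA difference ran from -0.22 to -0.09, and adding 1 to the counts left it at -0.16.

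The replicate numbers do not pair the pigs, which were unrelated. The correlation of the deviations of same-numbered pigs was over 0.1 in 3 of 8 pairs, and with the number as a block 1404 genes and 0 enzymes were at an unadjusted p of at most 0.05. The number of pairs of enzymes at an adjusted p of at most 0.05 was 6 within the LFC pigs and 1 within the HFC pigs (exact permutation tests), and 0 without the 3 low-slope pigs, in which 29 pairs had an r above 0. A 1.3-fold difference of HK1 or LDHB lies within the 95% intervals from all pigs.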
